A study of Arabidopsis thaliana with 10 samples.

Results

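The response of bts-3 roots to loss of iron was followed in 6 of the 10 arrays of the series: 3 from bts-3 roots without iron (-Fe) and 3 from bts-3 roots with iron (+Fe). They were chosen by title and paired by biological replicate number, 1, 2 and 3. All 16722 probe sets that the platform annotation pairs with exactly 1 gene were fitted on these 6 arrays alone. Plants of Arabidopsis thaliana, either the mutant bts-3 or the wild type WT (Col), had grown for 2 weeks on B5 medium. They then spent 72 h on medium with or without iron, and total RNA was taken from the roots. The remaining 4 arrays, from 2 WT replicates per medium, served as the outside comparison. Both media were applied in both genotypes, no transgene is named, and the lesion of bts-3 is not described in the labels. No probe set here carries the name BTS, and the mutant arrays were therefore not checked by that transcript. Because whole roots were measured, fewer cells of a type and less RNA per cell cannot be told apart.

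BRUTUS (BTS) is an E3 ubiquitin ligase with iron-binding hemerythrin domains, expressed in the root stele. It restrains the iron-deficiency response by promoting the breakdown of bHLH transcription factors that stand upstream of it. In wild-type roots short of iron these factors switch on secondary bHLH factors, short IRON MAN (IMA) peptides, coumarin synthesis and metal transport, so that iron can be mobilised and taken up. In a bts mutant part of this program is known to run while iron is still present.

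Values were log2 expression levels made by the authors with RMA, and a difference is given as the -Fe level minus the +Fe level of the same pair. Calls rest on limma's paired fit, with a Benjamini-Hochberg adjusted p below 0.05 over all 16722 probe sets. Of these, 10 (0.0598%) were called, 3 (0.0179%) higher on -Fe and 7 (0.0419%) lower, while 1307 (7.82%) had an unadjusted p under 0.05. With so few calls, the lack of a call in a list or family below is no result about its members. Per the labels the arrays are biological replicates, and the p-values rest on the spread between 3 such pairs. In limma that spread is drawn towards the one typical of all probe sets, and the number of arrays limits the precision. The pairs were not alike: the count was 126 without pair 1, 0 without pair 2 and 17 without pair 3. Without pair 2, 840 probe sets kept an unadjusted p under 0.05 and the smallest limma adjusted p was 0.42. In the full fit the arrays of the 2 media did not overlap for 844 probe sets higher on -Fe (5.05%) and 548 lower (3.28%), and all 10 called ones were among them. Most loci carried only a locus number in the tables used here, and no role is given for those outside the lists.

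The 3 called risers were AT5G62420, SCPL32 and AT3G19320, and each rose by close to the same amount in all 3 pairs. The paired test favours probe sets whose pairs agree, so this evenness is no separate result, here or for the called fallers. AT5G62420 was at 5.15, 5.76 and 3.75 on the +Fe arrays of replicates 1, 2 and 3, and at 7.18, 7.95 and 5.85 on the matching -Fe arrays. Its replicate 3 arrays were low on both media, and the difference stayed between 2.03 and 2.19. It rose by 2.11 (SE 0.15, limma adjusted p = 0.0277). SCPL32, which encodes a serine carboxypeptidase-like protein of a family of secreted hydrolases and acyltransferases, was at 4.17, 4.57 and 4.07 with iron and at 6.53, 6.50 and 5.92 without iron. The 2 media did not overlap, and it rose by 2.04 (SE 0.17, limma adjusted p = 0.0327). AT3G19320 was at 2.77, 4.01 and 3.36 with iron and at 5.02, 5.94 and 5.28 without iron. Every -Fe array lay above every +Fe array, and it rose by 2.03 (SE 0.16, limma adjusted p = 0.0277).

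Among the 7 called fallers, AT5G07610 had the largest fall. Its +Fe arrays read 7.19, 7.18 and 6.78 and its -Fe arrays 4.23, 4.49 and 4.36, with no overlap. It fell by 2.69 (SE 0.17, limma adjusted p = 0.0277). AT2G26380 went from 7.59, 6.62 and 5.45 to 5.05, 3.82 and 3.38, with replicate 3 lowest on both media, and the pairs differed by -2.54, -2.79 and -2.07. It fell by 2.47 (SE 0.19, limma adjusted p = 0.0277). AT1G12890 went from 5.27, 4.52 and 5.10 to 2.45, 2.65 and 2.95. Its media did not overlap, and it fell by 2.28 (SE 0.21, limma adjusted p = 0.0481). AT4G01870 went from 6.64, 6.60 and 5.93 to 4.52, 4.23 and 3.93, and fell by 2.16 (SE 0.16, limma adjusted p = 0.0277).

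AT1G73120 and AT1G07885 fell in bts-3 although both had risen in WT on the same medium. AT1G73120, a locus of the list of iron-deficiency genes, was at 7.74, 7.91 and 6.17 with iron and at 5.93, 5.73 and 4.31 without iron. It was lower in each pair, and it fell by 1.95 (SE 0.16, limma adjusted p = 0.0323). In WT it was at 3.06 and 3.37 with iron and at 6.69 and 5.69 without iron, so the WT -Fe arrays lay within the span of the bts-3 arrays. AT1G07885 went from 6.02, 6.52 and 5.20 to 4.49, 4.89 and 3.65, with differences of -1.53, -1.63 and -1.55, and fell by 1.57 (SE 0.14, limma adjusted p = 0.0465). In WT it was at 3.18 and 2.92 with iron and at 5.82 and 4.90 without iron. The responses of bts-3 and WT differed by -4.93 for AT1G73120 (SE 0.39, limma adjusted p = 0.00334) and by -3.89 for AT1G07885 (SE 0.36, limma adjusted p = 0.00953). The last of the 7, AT4G38410, is a dehydrin-family gene, of a class of proteins that accumulate under cold and drought. It went from 4.53, 4.31 and 4.74 to 2.97, 2.73 and 2.96, below all 4 WT arrays, which lay between 3.30 and 3.93. It fell by 1.64 (SE 0.15, limma adjusted p = 0.0465).

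**Figure D1:**
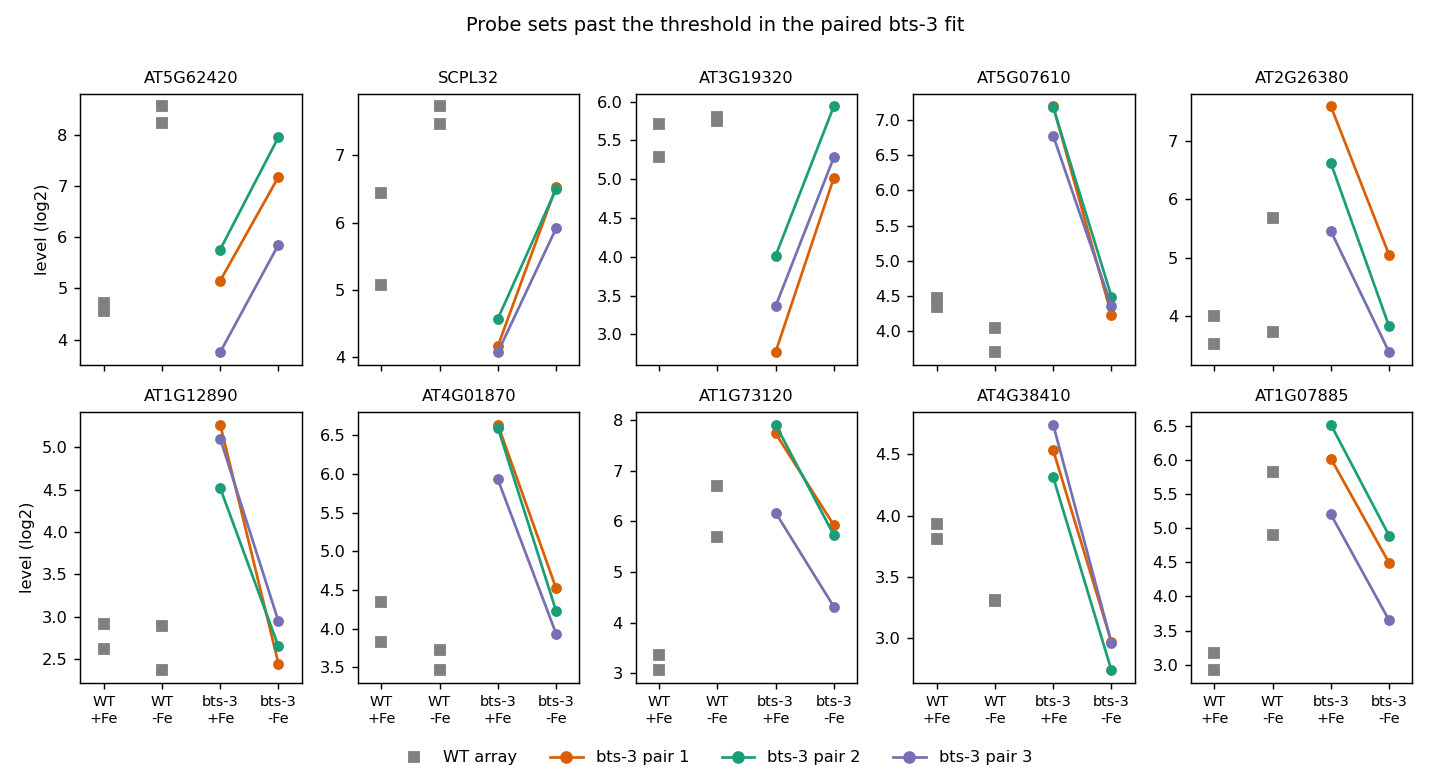
Level (log2) of the 10 called probe sets on each array. Grey squares are single WT arrays and coloured lines join the +Fe and -Fe arrays of 1 bts-3 pair. For the 7 called lower the 3 lines run down side by side, and for the 3 called higher they run up. The paired test favours such even lines.

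The probe sets that came next in the paired fit did not pass the threshold, and their values are given as such. PRX52, a class III peroxidase of the cell wall, had the lowest fold change of all of these. It was at 9.90, 7.61 and 7.15 with iron and at 5.91, 4.01 and 4.87 without iron, without overlap. Its mean difference was -3.29 (SE 0.33, limma adjusted p = 0.0552), and the pairs ranged from -3.997 to -2.28. AT1G65500 had a log2 fold change of -2.26, AT2G41380 of -1.82, AT5G64110 of -1.46 and AT4G22610 of -1.34, with limma adjusted p between 0.0604 and 0.0666. On the higher side stood 2 genes of wall loosening. XTH21, a xyloglucan endotransglucosylase that cuts and rejoins wall polymers, was at 4.13, 5.63 and 4.68 with iron and at 5.58, 6.92 and 6.33 without iron. EXPB1, a beta-expansin, was at 6.66, 7.71 and 6.93 with iron and at 8.05, 9.12 and 8.73 without iron. Both were higher in each of the 3 pairs. Their log2 fold changes were 1.46 (SE 0.15) and 1.53 (SE 0.16), each with a limma adjusted p of 0.0646.

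A count by size and direction needs no estimate of the spread. Differences past 1 in all 3 pairs were found for 22 probe sets on the higher side (0.132% of all) and for 24 on the lower side (0.144%), the 10 called ones included. The lower ones held, besides those above, several enzymes with a name. The glyoxylate-cycle enzyme isocitrate lyase (ICL) had a log2 fold change of -1.51, and pyruvate orthophosphate dikinase (PPDK), which links pyruvate and phosphoenolpyruvate, of -1.62. The subtilase SBT3.3 had a value of -2.47, the methionine sulfoxide reductase MSRB8, which repairs oxidised methionine, of -1.75, and the glycosyltransferase UGT73B4 of -1.40. The higher ones held GH9B17, a glycosyl hydrolase of family 9, at 2.14. On the +Fe arrays GH9B17 was at 4.47, 4.51 and 4.43, and on the -Fe arrays at 5.60, 6.76 and 7.49. Its +Fe arrays were nearly level, and the spread of its difference, from 1.13 to 3.06, came from the -Fe arrays. Of these genes the limma adjusted p lay between 0.0692 (ICL and UGT73B4) and 0.175 (GH9B17).

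The place of these 46 probe sets against the WT arrays is given as a description, since the bts-3 arrays chose them. Of the 24 lower ones, 19 had all 3 bts-3 +Fe arrays above all 4 WT arrays, as had 5.87% of all probe sets. Of the 22 higher ones, 16 had all 3 bts-3 +Fe arrays below all 4 WT arrays, as had 7.33% of all probe sets. Nothing is read from these shares, because large differences between the bts-3 media had already chosen the members. At least 1 -Fe array lay inside the WT range for 18 of the 24 and 17 of the 22, as it did for 85.7% of all probe sets. PRX52 was at 4.25 and 4.42 on WT +Fe and at 4.47 and 5.09 on WT -Fe, so that its bts-3 -Fe arrays at 5.91, 4.01 and 4.87 lay around the WT levels and its +Fe arrays above them. AT3G19320 was between 5.29 and 5.80 in WT, above its 3 bts-3 +Fe arrays. Some had no -Fe array inside the WT range. Of these, AT1G65500, AT5G39120 and SBT3.3 had all 3 -Fe arrays above WT. AT4G38410, whose +Fe arrays were all above WT, had all 3 -Fe arrays below. AT3G18450, a gene of the higher side, also had all 3 below. The rest of these, such as AT3G19320, had -Fe arrays on both sides of the range.

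**Figure D2:**
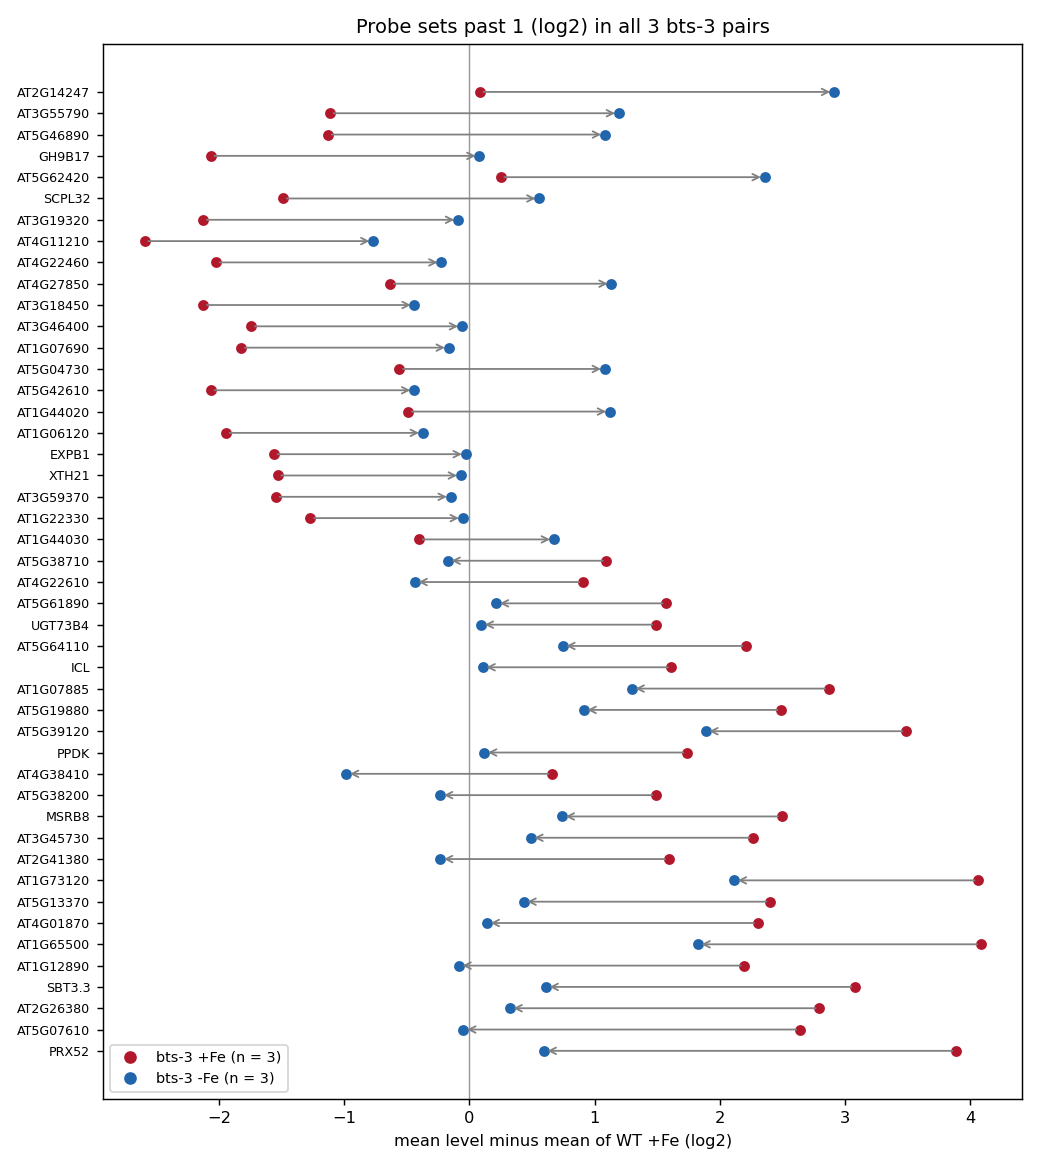
Mean level of bts-3 on +Fe (red) and on -Fe (blue, n = 3 arrays each) minus the mean of the 2 WT +Fe arrays, in log2 units, for the 46 probe sets past 1 in all 3 pairs, with an arrow from +Fe to -Fe. For most, the red point is the one farther from 0 and the arrow runs towards 0.

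The WT difference was larger in size than that of bts-3 for 4 of the 22 higher ones, AT5G62420, AT2G14247, AT5G04730 and AT4G27850, and for 2 of the 24 lower ones, AT1G73120 and AT1G07885. Since a large bts-3 difference chose the members, smaller WT values for the rest are no result about WT. The median WT difference was 0.40 for the 22 higher ones, beside a bts-3 median of 1.68, and 0.13 for the 24 lower ones, beside -1.74. Within 1 of no change in WT lay 16 of the 22 and 20 of the 24. The difference between the genotypes was tested over all 10 arrays with the pairs kept as a block within bts-3. It was called for 33 of the 16722 probe sets (0.197%), with the bts-3 response higher for 9 (0.0538%) and lower for 24 (0.144%), and 7 of the 46 were among them. Leaving out 1 WT array or 1 bts-3 pair gave counts from 1 to 87, and the fit without the block called 1. AT3G19320 had a WT difference of 0.27 and a response that was higher in bts-3 by 1.77 (SE 0.26, limma adjusted p = 0.046). AT5G07610 had a WT difference of -0.53, and its response was lower in bts-3, at -2.15 (SE 0.27, limma adjusted p = 0.0259). PRX52 differed by -3.73 (SE 0.48, limma adjusted p = 0.0289). AT5G42610 differed by 2.48 (SE 0.31, limma adjusted p = 0.0259), with 1.62 in bts-3 and -0.86 in WT.

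AT5G62420 and SCPL32 were higher on -Fe in both genotypes. AT5G62420 was at 4.72 and 4.55 on WT +Fe and at 8.22 and 8.55 on WT -Fe, a difference of 3.75 that was called. Its response in bts-3 differed from that of WT by -1.64 (SE 0.24, limma adjusted p = 0.046). SCPL32 had a WT difference of 1.84, and the genotypes differed by 0.21 (SE 0.49, limma adjusted p = 0.956), a test that does not show equal responses.

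Iron-deficiency genes were described from 3 lists of 63 loci in all, for iron uptake and coumarins, iron-deficiency signalling, and other loci known from iron deficiency. They had 33 measured probe sets for 32 loci, since COSY has 2, while IRT1 (iron transport) and FRO2 (ferric reduction) were not analysed here. None of the 33 was called higher and 1, AT1G73120, was called lower, against 0.0179% and 0.0419% of all probe sets. With so few calls among all probe sets, the lack of a called riser is no result about the 33. An unadjusted p under 0.05 was found for 7 of the 33 on the higher side and 1 on the lower, beside 4.71% and 3.11% of all probe sets. Their median difference was 0.25, beside 0.02 over all probe sets and 2.60 for the same 33 in WT. In all 3 pairs 9 (27.3%) were higher and 2 (6.06%) lower, where 17.2% and 12.5% of all probe sets were. For 13 of the 33 the genotypes' responses were called different, each lower in bts-3, where 0.144% of all probe sets were called lower. The lists hold loci known from iron deficiency and were chosen with earlier results of these data known. Genes with a large WT rise were thus favoured, which makes a lower bts-3 response likely, so this share is no separate result.

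The 3 pairs gave different pictures of these genes. Higher on -Fe were 31 of the 33 in pair 1, 21 in pair 2 and 14 in pair 3, beside 51.2%, 54.8% and 52.6% of all probe sets. The median difference was 0.92, 0.12 and -0.05 in pairs 1, 2 and 3. Averaged over the 33, the level was 6.86, 7.05 and 6.01 on +Fe and 8.19, 7.22 and 5.98 on -Fe, where WT stood at 5.18 and 5.23 with iron and at 8.05 and 8.11 without iron. So all 3 bts-3 +Fe arrays lay above the WT +Fe arrays, -Fe replicate 1 lay near the WT -Fe arrays, and replicate 3 was low on both media.

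**Figure D3:**
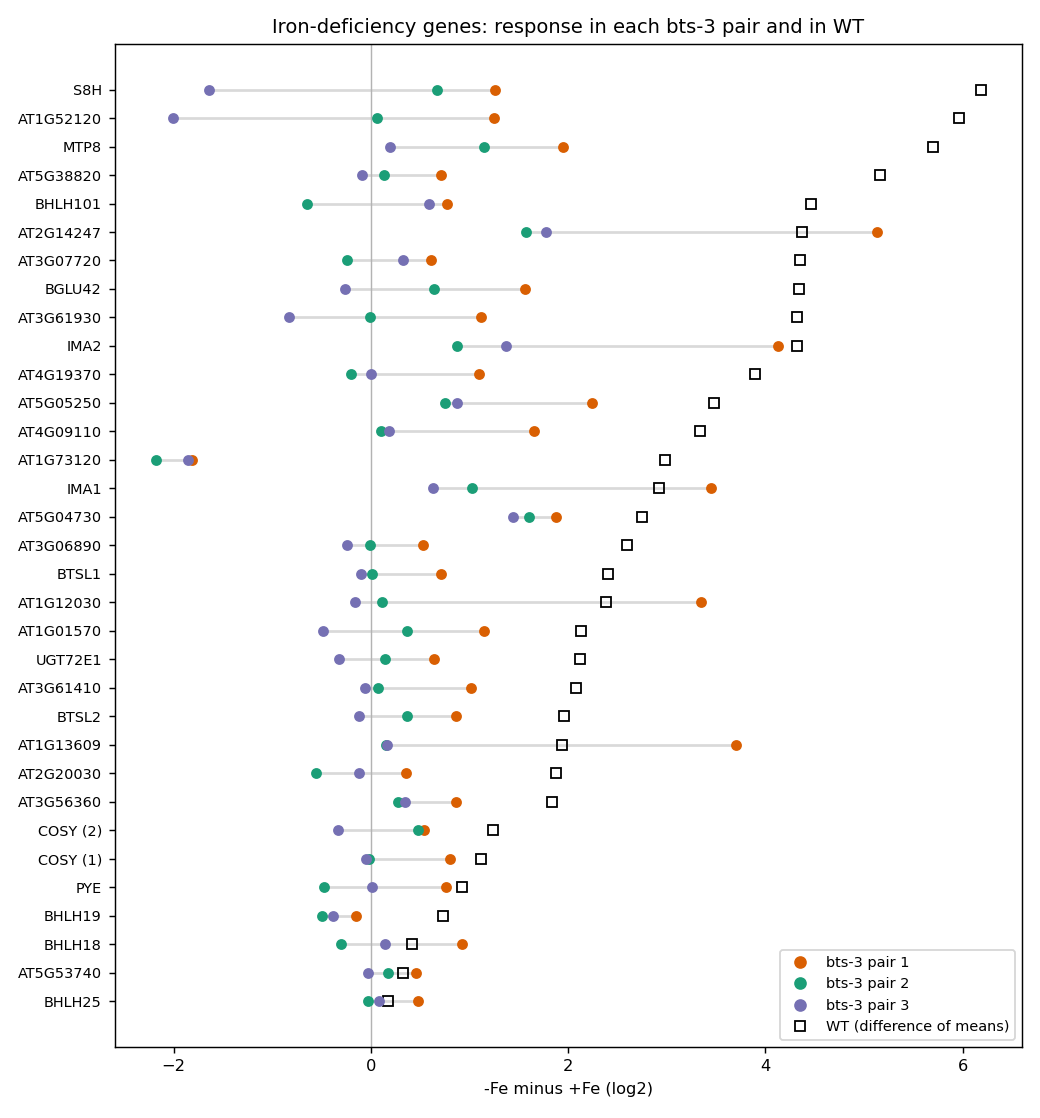
Difference of -Fe minus +Fe (log2) for the 33 iron-list probe sets in each bts-3 pair (coloured points, grey bar from lowest to highest) and in WT (open squares, difference of means of 2 arrays each), sorted by the WT value. Pair 1 is mostly the rightmost point and pair 3 often the leftmost.

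Among the uptake and coumarin genes S8H, the hydroxylase that makes fraxetin, moved in opposite directions. It was at 11.46, 11.14 and 9.78 with iron and at 12.72, 11.82 and 8.14 without iron, with differences of 1.26, 0.67 and -1.64. The metal transporter gene MTP8, which loads manganese into the vacuole, was at 7.54, 7.07 and 5.37 with iron and at 9.48, 8.22 and 5.56 without iron. It was higher in each pair, by 1.94, 1.15 and 0.19, and its mean difference of 1.09 (SE 0.32) had a limma adjusted p of 0.456. BGLU42, a beta-glucosidase that frees coumarins before their release, had differences of 1.56, 0.64 and -0.27. The differences of COSY, coumarin synthase, were 0.80, -0.01 and -0.05 on 1 probe set and 0.54, 0.48 and -0.33 on the other. In WT the differences were 6.19 for S8H, 5.70 for MTP8 and 4.34 for BGLU42. For all 3 the bts-3 response was lower by a called amount, at -6.09, -4.61 and -3.70. The starting levels were unlike: on WT +Fe S8H was at 6.61 and 6.43, MTP8 at 4.59 and 4.50 and BGLU42 at 7.44 and 7.77. All 3 bts-3 +Fe arrays lay above these for each gene, with BGLU42 at 9.89, 10.16 and 8.50.

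In the signalling list the IMA peptide genes had the highest values, and pair 1 carried most of them. IMA1 was at 4.72, 4.73 and 4.20 with iron and at 8.17, 5.76 and 4.83 without iron. IMA2 was at 4.64, 5.15 and 4.18 with iron and at 8.77, 6.02 and 5.55 without iron. Both were higher in every pair, by 3.44, 1.02 and 0.63 for IMA1 and by 4.13, 0.87 and 1.37 for IMA2, and the spread between pairs was nearly as large as the mean. Their log2 fold changes were 1.70 (SE 0.52) and 2.12 (SE 0.59), with limma adjusted p of 0.495 and 0.434. Neither had a called difference from the WT response, which was 2.92 and 4.32, but this does not show equal responses. For IMA2 the response in bts-3 differed from that of WT by -2.20 (SE 0.95, limma adjusted p = 0.613). BHLH101, a secondary bHLH factor induced by iron shortage, was at 7.27, 7.78 and 6.001 with iron and at 8.04, 7.14 and 6.59 without iron. Its pairs differed in sign, and its response was lower than in WT by a called amount of -4.22. On WT +Fe it was at 3.15 and 3.47, below all 3 bts-3 +Fe arrays. PYE, a bHLH repressor within the same response, had differences of 0.77, -0.47 and 0.01. BTSL1 and BTSL2, relatives of BTS with ligase function, had differences of 0.71, 0.02 and -0.10 and of 0.86, 0.37 and -0.12.

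The other iron-deficiency loci held 19 measured probe sets, and 11 were above 1 in pair 1 but only 2 each in pairs 2 and 3. AT2G14247 was at 3.24, 4.41 and 3.26 with iron and at 8.38, 5.98 and 5.04 without iron. It was past 1 in every pair, and its mean difference of 2.83 (SE 0.67) had a limma adjusted p of 0.36. AT5G04730 was more even, at 7.92, 7.73 and 5.78 with iron and at 9.80, 9.33 and 7.23 without iron. Its mean difference of 1.64 (SE 0.16) had a limma adjusted p of 0.055. Other loci moved in pair 1 alone: AT1G13609 had differences of 3.71, 0.15 and 0.16, and AT1G12030 of 3.34, 0.12 and -0.16. AT1G52120 ran from 1.25 in pair 1 to -2.01 in pair 3.

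The bHLH factors upstream of this program had 5 measured probe sets, and none was called in either direction, where 0.0598% of all probe sets were. These are RNA levels and do not show the amount of protein. ILR3 had differences of 0.51, -0.05 and 0.18, BHLH115 of 0.52, -0.09 and 0.30, BHLH104 of -0.16, -0.39 and 0.34, BHLH34 of -0.20, -0.20 and 0.35, and BHLH121 of -0.28, -0.15 and 0.43. All 5 were lower in pair 2 and higher in pair 3. Of 4 measured zinc homeostasis genes none was called, where 0.0598% of all probe sets were. The zinc-responsive regulator BZIP19 had a log2 fold change of 0.45, with all pairs higher, and the transporter ZIP9 had differences of 1.32, -0.56 and -0.13.

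The probe sets called in WT were also followed through the 3 bts-3 pairs. In the 10-array fit, which shares its estimate of the spread with bts-3, 120 probe sets (0.718%) were called in WT, 97 (0.58%) higher and 23 (0.138%) lower. Of the 97, 89 were higher in bts-3 pair 1, 72 in pair 2 and 54 in pair 3, beside 51.2%, 54.8% and 52.6% of all probe sets, and 45 were higher in all 3 pairs, 46.4% where all probe sets gave 17.2%. Their median difference was 0.77, 0.19 and 0.09 in the 3 pairs, beside 2.08 in WT. Since a large WT difference chose the members, the larger WT values here and in the levels below are no result. The spread between the bts-3 pairs entered the WT calls through the shared estimate. Agreement among the pairs was therefore partly chosen, and the share higher in all 3 pairs is no separate result. Their mean level was 6.59, 6.69 and 5.94 on bts-3 +Fe and 7.51, 6.92 and 5.98 on bts-3 -Fe. In WT it was 5.31 and 5.36 on +Fe and 7.75 and 7.69 on -Fe. For the 23 lower in WT, the bts-3 +Fe arrays averaged 4.86, 5.16 and 4.54, and the median bts-3 difference was -0.08. Their WT means were 6.11 and 6.17 with iron, against 4.63 and 4.60 without iron. A high WT +Fe level beside a low WT -Fe level chose these 23. Which WT medium the bts-3 +Fe arrays lay nearer to is therefore no result. Of these 23, 8 were higher in pair 1, 11 in pair 2 and 11 in pair 3, with median differences of -0.24, -0.03 and -0.08.

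Across all 16722 probe sets pair 1 moved most. The SD of the differences was 0.54 in pair 1, 0.37 in pair 2 and 0.40 in pair 3. Above 1 were 616 probe sets (3.68%) in pair 1, 121 (0.724%) in pair 2 and 195 (1.17%) in pair 3. Below -1 were 436 (2.61%), 203 (1.21%) and 219 (1.31%). The differences of pairs 1 and 2 correlated across probe sets at r = 0.216, those of pairs 2 and 3 at 0.284, and those of pairs 1 and 3 at 0.0361. These are descriptions over probe sets, which share arrays and are not independent.

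**Figure D4:**
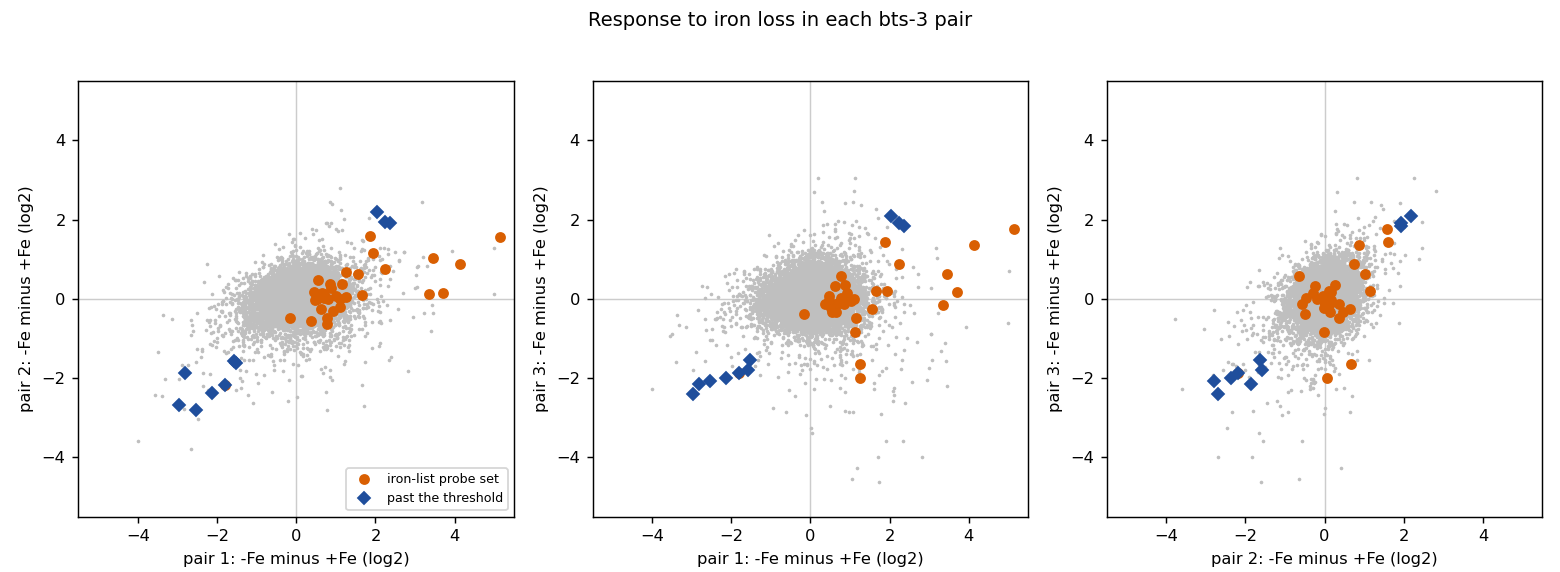
Difference of -Fe minus +Fe (log2) in 1 bts-3 pair against another, for 16722 probe sets (grey). Iron-list probe sets are orange circles and the 10 called ones are blue diamonds. The called ones lie near the diagonal in all 3 panels, which is no result, since the paired test favours differences that agree between pairs. The iron-list ones spread to the right along the pair 1 axis.

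The -Fe array of replicate 1 was the one farthest from its mates. On it 766 probe sets lay over 1 (log2) above the mean of the other bts-3 -Fe arrays and 460 over 1 below it, where the other bts-3 -Fe arrays had 245 to 294 above and 265 to 414 below. Its mean correlation with its mates was 0.969, beside 0.975 and 0.976 for the other -Fe arrays and 0.983 to 0.986 for the +Fe arrays. Its median over all probe sets was 5.27, beside 5.39 to 5.44 for the other 5 bts-3 arrays. Its lower quartile over the single-gene probe sets was 2.99, beside 2.61 to 2.75 for those 5. The shoot markers RCA and LHCB4.1, the 2 measured of 10, averaged 7.47, 7.48 and 7.40 on +Fe and 6.50, 7.19 and 7.53 on -Fe. WT gave 8.03 and 7.55 on +Fe and 6.81 and 6.41 on -Fe for them. The root hair markers EXPA7 and EXPA18, 2 of 7 measured, averaged 8.74, 8.57 and 7.47 on +Fe and 8.68, 8.52 and 8.06 on -Fe, lowest in replicate 3. The part of these levels in the iron-gene differences was not tested. Endodermis and vascular markers were not analysed here.

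The genes that set a pair apart were named by the gap between its difference and the mean of the other 2 pairs, with no test. Replicate 1 on -Fe and replicate 3 on +Fe were high together for several of them. UPOX, a mitochondrial protein gene raised by oxidative stress, was at 6.28, 6.41 and 8.67 with iron and at 9.11, 4.59 and 4.69 without iron. Its differences were thus 2.83, -1.82 and -3.98. PUB54, a U-box ubiquitin ligase gene, had differences of 3.46, -0.36 and -2.19, AT2G04050 of 1.72, -1.60 and -4.62 and AT4G12735 of 1.72, -2.69 and -3.998. AT3G54520 and AT2G04070 were highest on +Fe replicate 3, at 6.55 and 5.90, and between 2.29 and 3.23 on the other +Fe arrays.

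The list of oxidative and organelle stress had 5 measured genes and no call, where 0.0598% of all probe sets were called. The glutathione transferase GSTU25 was at 7.09, 6.63 and 7.10 with iron and at 6.47, 4.28 and 4.24 without iron, lower in every pair. The zinc-finger factor ZAT10 had differences of 0.62, -1.76 and -1.35, NDB2, an alternative NAD(P)H dehydrogenase of mitochondria, of 0.26, -0.31 and -1.08, and AT12CYS of 1.90, -0.10 and -1.74. The list median was 0.62, -1.76 and -1.74 in the 3 pairs, beside 0.01, 0.03 and 0.02 over all probe sets.

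**Figure D5:**
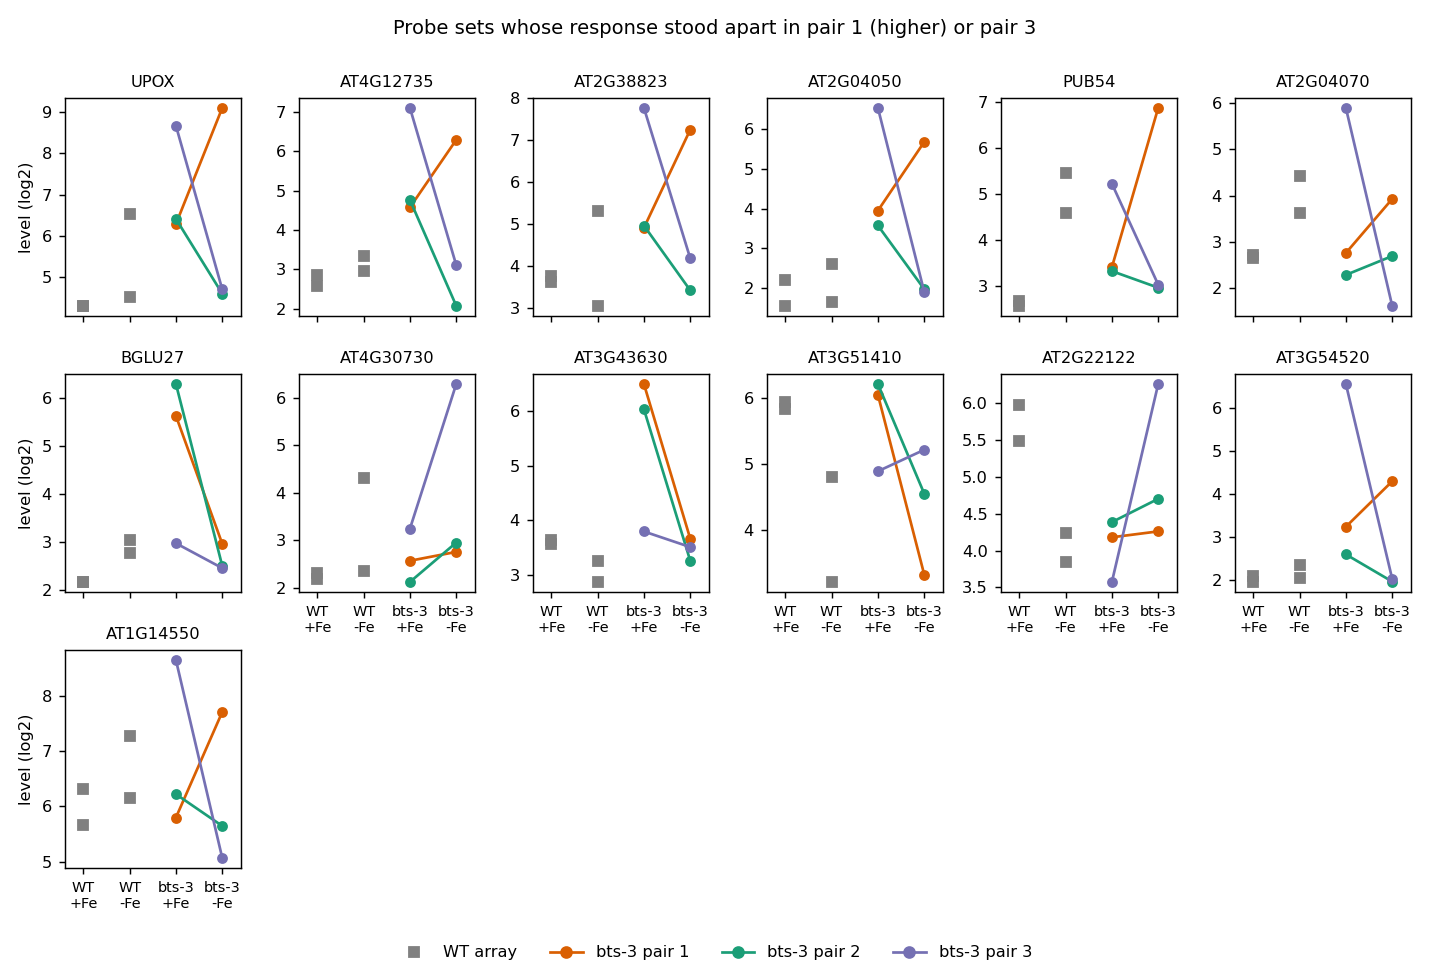
Level (log2) on each array of the 13 probe sets that set pair 1 apart on the higher side or pair 3 on either side, drawn as in the plot of the called probe sets. For UPOX, AT4G12735, AT2G38823 and AT2G04050 the line of pair 1 runs up while those of pairs 2 and 3 run down, and for BGLU27 and AT3G43630 pair 3 is the nearly level line.

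Pair 3 stood apart where its +Fe array lacked a high level that the other +Fe arrays had. BGLU27, a beta-glucosidase, was at 5.62, 6.29 and 2.98 with iron and at 2.96, 2.50 and 2.46 without iron. AT3G43630 was at 6.50, 6.04 and 3.80 with iron and at 3.66, 3.26 and 3.51 without iron. For both, the WT arrays lay between 2.17 and 3.64, below the first 2 bts-3 +Fe arrays. AT4G30730 stood apart the other way, at 6.29 on -Fe replicate 3 and between 2.12 and 3.24 on the other 5 arrays. In pair 1, AT3G01345 was at 10.34, 10.82 and 10.81 with iron and at 8.02, 11.23 and 10.86 without iron, and AT2G15780 was at 6.46 on +Fe replicate 1 and between 2.74 and 3.81 on the other 5 arrays. The defensin gene PDF2.1 was low on +Fe replicate 2, at 3.51, beside 6.52 and 5.86, so that it set both pair 1 and pair 2 apart. AT5G25840 was at 7.91 on -Fe replicate 1, between 2.64 and 3.82 on the other 5 bts-3 arrays, and at 7.12 and 6.52 on the WT -Fe arrays.

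Of the cell wall families, TBL genes were most often higher on -Fe. Of 23 measured members, whose family is known to add acetyl groups to wall polysaccharides, 12 (52.2%) were higher in all 3 pairs and 1 lower, beside 17.2% and 12.5% of all probe sets. None was called, and 5 had an unadjusted p under 0.05 on the higher side, beside 4.71% of all. TBL33 was at 6.18, 6.79 and 6.01 with iron and at 6.74, 7.39 and 6.65 without iron, a mean difference of 0.60 (SE 0.14, limma adjusted p = 0.368). The family median was 0.26 in bts-3 and -0.10 in WT. Of 23 expansin probe sets, 6 were higher in all pairs and 1 lower. Of 9 xyloglucan endotransglucosylases, 3 were higher in all pairs (XTH21, XTH16 and XTH19) and 3 lower (XTH20, XTH29 and XTH32). XTH16 had a mean difference of 1.02 (SE 0.15, limma adjusted p = 0.153). None of the expansins or xyloglucan endotransglucosylases was called.

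Besides SCPL32, the serine carboxypeptidase-like family had 6 measured members and no further call, where 0.0179% of all probe sets were called higher. Of all 7, 5 were higher in all pairs and none lower in all pairs, beside 17.2% and 12.5% of all probe sets. SCPL15 was at 6.17, 6.54 and 5.82 with iron and at 7.60, 7.504 and 7.48 without iron. Its media did not overlap, and its mean difference was 1.35 (SE 0.18, limma adjusted p = 0.125), beside 1.48 in WT.

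UDP-glycosyltransferases, which attach sugars to hormones and secondary metabolites, had 56 measured genes with a median difference of -0.06. Of these, 17 (30.4%) were lower in all 3 pairs and 8 (14.3%) higher, beside 12.5% and 17.2% of all probe sets, and none was called. An unadjusted p under 0.05 on the lower side was found for 9 of the 56, beside 3.11% of all probe sets. All 5 members of the UGT73B group, a subset looked at after the values were seen, were lower in every pair. Their mean level was 7.27, 7.05 and 6.81 on +Fe and 6.34, 6.37 and 6.15 on -Fe, where the 4 WT arrays lay between 5.98 and 6.52. UGT73B4 had differences of -1.66, -1.27 and -1.26 and UGT73B2 of -0.88, -0.59 and -0.80. UGT73C7 and UGT87A2 had log2 fold changes of -1.15 and -1.05. Glutathione transferases were split: of 13 measured, 2 were higher and 3 lower in all pairs. GSTF3 was at 7.87, 7.95 and 7.91 with iron and at 5.64, 5.65 and 7.22 without iron, and GSTU28 was at 5.18, 5.41 and 4.50 with iron and at 6.29, 6.30 and 6.05 without iron. Their limma adjusted p were 0.258 and 0.164.

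Of 7 measured cold and dehydration genes, AT4G38410 was called lower and none was called higher, where 0.0419% and 0.0179% of all probe sets were. Lower in all 3 pairs were 4 of the 7, beside 12.5% of all probe sets. The dehydrin XERO2 was at 6.72, 6.16 and 5.82 with iron and at 5.82, 5.12 and 5.11 without iron, with a mean difference of -0.88 (SE 0.15, limma adjusted p = 0.213). COR15A, which protects chloroplast membranes in the cold, had differences of -0.43, -0.13 and -0.40, and KIN2 of -0.27, -0.23 and -0.21. In WT the values were -0.78 for XERO2, -1.89 for COR15A and -1.79 for KIN2. The KIN2 responses differed by a called 1.55 (SE 0.22, limma adjusted p = 0.046).

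The 63 chloroplast-encoded probe sets moved by small amounts that differed between pairs. Higher on -Fe were 5 in pair 1, 41 in pair 2 and 12 in pair 3, the medians were -0.24, 0.03 and -0.10, and none was called. Their mean level was 10.32 on -Fe replicate 1, where the shoot markers were also lowest, and 10.62 to 10.75 on the other 5 bts-3 arrays. Of 10 measured U-box ligases, 9 were higher in pair 1, 4 in pair 2 and 2 in pair 3. Of 28 cytochromes P450, 3 were higher and 2 lower in all pairs, and of 7 WRKY factors 1 was lower and none higher, beside 17.2% of all probe sets higher and 12.5% lower. No member of these families was called. Mean differences of the reference genes were 0.18 for GAPC2, -0.03 for SAND and -0.07 for TIP41.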

How the data were processed

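Root RNA from bts-3 was measured on 6 Affymetrix arrays, 3 per medium, with 4 WT arrays beside them, and the labels' protocols give 100 ng RNA as the input. The deposited values are log2 levels, 1 per probe set and array, and per the submitters' processing notes the authors used RMA and Affymetrix Expression Console. Versions, the build and detection calls are not given in the sources used here. RMA is meant to bring the arrays to 1 distribution, which the probe set levels here did not fully share, and it compresses differences near background. Over the whole table the 6 bts-3 arrays' values ran from 1.03 to 14.1, and their medians lay between 5.27 and 5.44.

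Of 28583 probe sets, 16722 were paired with exactly 1 gene and tested without a filter, 759 had several genes and 11102 had no gene name here. By gene ID, 16574 matched the RefSeq table of TAIR10.1, from which names and the chloroplast set were taken. Symbols such as S8H, MTP8, COSY, BTSL1, BTSL2, IMA1, IMA2 and UPOX, and all roles, come from general knowledge of the locus. AT5G53740 has a pair of probe sets with identical values, counted once.

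The main test used R 4.3.3 and limma 3.58.1, two-sided, with the replicate number as a block, 2 residual and 4.3 prior degrees of freedom, and Benjamini-Hochberg adjustment. The difference from WT was an interaction contrast over all 10 arrays with the block within bts-3. Deviations from the group means were compared between media. Arrays sharing a number correlated at 0.296, 0.511 and 0.387 across probe sets, so the numbers were taken to pair the arrays. Those of unlike number correlated at -0.290 to -0.107. Deviations from a group mean cancel within the group, so these negative values are no separate sign of pairing. This pairing rests on the values, as the labels only number the replicates. On simulated data with 50 changed genes per size among 16722, the paired test recovered 32% of log2 changes of 1, 64% of 2, 86% of 3 and 96% of 4. The simulated noise came from each gene's own residual SD, and all sizes were changed at once, so these rates do not carry over to the real arrays. There AT1G44030, with a mean difference of 1.08 and an SD of 0.018 over the pairs, had a limma adjusted p of 0.118.

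The named genes were up to 12 per direction by called fold change and then by moderated t with all pairs alike, 5 per direction for each pair's gap to the others, measured list and family members, and up to 6 per direction of the interaction. Lists held 255 loci, 63 of them with a named probe set, and 11 of 24 lists had none and were not analysed here. Members, lists and rules were chosen with earlier results of these data known. Alternatives were fits without the block or with all 10 arrays, other probe set filters, scalings, variance models and thresholds, and leaving out each pair or WT array. A planned motif search was not run, since it needs promoter sequences that were not used here.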

Additional observations from a re-analysis of the deposited data

Results flagged for a closer look

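For 33 probe sets the test of the genotypes' responses to iron loss passed the threshold in limma's interaction contrast (0.197% of 16722, adjusted p from 0.000534). Values are the response of bts-3 minus that of WT on the log2 scale. No explanation was weighed.

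Positive values came from AT5G42610 (2.48), AT3G13840 (2.43), AT3G53980 (2.09), AT3G20850 (2.02), AT1G52790 (1.93), AT3G19320 (1.77), KIN2 (1.55), AT1G07460 (1.55) and AT3G45710 (1.49). The bts-3 response of AT3G13840 was 0.43 and its WT response -1.99.

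Negative values among the iron-list genes were -6.20 for AT1G52120, -6.09 for S8H, -4.93 for AT1G73120, -4.92 for AT5G38820, -4.61 for MTP8, -4.23 for AT3G61930, -4.22 for BHLH101, -4.12 for AT3G07720, -3.70 for BGLU42, -3.60 for AT4G19370, -2.50 for AT3G06890, -2.20 for BTSL1 and -1.98 for AT2G20030. Of these 13, AT5G38820 had the lowest limma adjusted p, 0.000534, with 0.25 in bts-3 and 5.17 in WT. It was already at 9.08, 9.66 and 7.08 on bts-3 +Fe, beside 5.09 and 5.17 on WT +Fe.

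The remaining negative values were -5.47 for the cytochrome P450 gene CYP71B5, -3.99 for AT4G17680, -3.89 for AT1G07885, -3.73 for PRX52, -2.78 for AT4G10510, -2.57 for the auxin-conjugating enzyme gene GH3.3, -2.15 for AT5G07610, -2.09 for AT1G14185, -1.99 for AT3G57160, -1.92 for scpl20 and -1.64 for AT5G62420.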

How the results depend on the processing

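The paired count of 10 was 10 with all probe sets of the table or robust eBayes, 8 with arrays centred on their median and 7 without the dimmest 25%. It was 22 without probe sets below the median level, 4 when quantile-normalized again, 26 with an intensity trend, and 0 at an adjusted p under 0.01, where 1307 had an unadjusted p under 0.05. On the pairing, it was 1 with no replicate block, 56 with all 10 arrays and the replicate block within bts-3 (32 higher and 24 lower, 9 shared), and 4 with all 10 arrays and no replicate block. Leaving out 1 pair gave 0 to 126, and all 10 were among the 126. The interaction count of 33 was 1 with no replicate block, 12 with the replicate block within each genotype, 79 with all probe sets, 46 with robust eBayes, 33 without the dimmest 25%, 28 when quantile-normalized again and 4 at an adjusted p under 0.01. It ran from 5 to 87 when 1 bts-3 pair was left out and from 1 to 30 when 1 WT array was, and the lone WT array left was then assumed to vary like the other groups.

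No called gene changed direction. Of the 55 gene values tried, 14 changed sign, each only when 1 pair was left out, and none of them was called. With 1 pair left out in turn, these ran from -0.023 to 1.73 for AT1G12030, -0.033 to 0.39 for 1 COSY probe set, -0.059 to 0.76 for AT1G01570, -0.10 to 0.55 for AT4G19370, -0.082 to 0.53 for BHLH18, -0.045 to 0.36 for BTSL1, -0.028 to 0.68 for BHLH101, -0.089 to 0.40 for UGT72E1, -0.13 to 0.26 for AT3G06890, -0.23 to 0.39 for PYE, -0.42 to 0.55 for AT3G61930, -0.48 to 0.97 for S8H, -0.34 to 0.12 for AT2G20030 and -0.97 to 0.66 for AT1G52120. Scaling moved the median of all probe sets from 0.02 to 0.01 or 0.07. For genes near background the levels are compressed, no detection call was used, and the cause of the shifts between settings was not tested.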

Other observations

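In the fit of the whole table, 3 of the 11861 probe sets with several genes or no name here were called (0.0253%), 1 higher and 2 lower on -Fe. Of single measured list members, the iron-sulfur scaffold gene ISU1 was at 8.17, 8.17 and 8.16 with iron and at 7.95, 7.80 and 7.92 without iron, with a limma adjusted p of 0.724, and HCT, of the phenylpropanoid pathway that feeds coumarin synthesis, had differences of 0.81, 0.45 and -0.07. The clock gene GI had differences of -0.29, -0.13 and -0.16. Among genes called in WT, SCPL15 and AT1G72200 had bts-3 log2 fold changes of 1.35 and 1.06 beside 1.48 and 1.21 in WT, and neither was called in bts-3.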
